A study of Homo sapiens with 2 samples.

Results

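The genes described here are 10 members of the annexin and S100 families of calcium-binding proteins: the annexins ANXA1, ANXA2, ANXA3, ANXA5 and ANXA6, and the S100 genes S100A2, S100A4, S100A6, S100A10 and S100A11. They were taken by symbol from 12918 genes, by a rule that sets no threshold on a measured value; the list itself was drawn up with earlier results of these data known. All 10 reached 1 FPKM (fragments scaled to transcript length and library size) in both libraries, as 11046 genes did in at least 1 library. RNA-seq had been run on MDA-MB-231, an established human breast cancer line of the triple-negative type, grown in L15 medium with 10% serum. One library came from cells given the negative control oligonucleotide si-NC, the other from cells given a Smart Silencer, a commercial mix of knockdown oligonucleotides, against the long noncoding RNA THAP7-AS1. Both were taken at 48 h. The column headed si-v was assigned to the silencer by elimination, is called the si-v library here, and every direction depends on that assignment. Where a pair of values is given, the first is that of the control library and the second that of the si-v library.

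With 1 library per group there is no spread between cultures, so differences have no replicate check and no test was possible; each statement is about these 2 libraries. THAP7-AS1 itself was not analysed here, because 0 of its 3 annotated transcripts were among the rows of the table, and the knockdown was therefore not checked. Depth was about 7830000 and 8320000 fragments on the listed transcripts of the control and si-v libraries. Among markers of the line, VIM stood at 344 and 373 FPKM, KRT18 at 126 and 138, CAV1 at 118 and 83.7, and EGFR at 53.5 and 39.4, while the estrogen receptor gene ESR1 was listed at 0 in both. ERBB2, which triple-negative cells do not amplify, stood at 4.65 and 17.4. Of 8 markers of blood, endothelial and liver cells, 2 had values: CD14 at 0.484 and 0.367, and ALB at 17.0 and 17.7.

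Annexins bind acidic phospholipids on the inner face of membranes when calcium rises, and take part in vesicle traffic, membrane repair and control of inflammation. S100 proteins are small dimers with paired EF-hand loops; calcium turns them so that they can grip a target protein, often the tail of an annexin. The pairing of ANXA2 with S100A10 is the best known of these complexes and gathers plasminogen and its activator at the surface of tumor cells. S100A4 is known as a metastasis-associated protein in breast cancer.

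The sequences below show how S100A10 differs from its relatives. They are the coding strand of the second EF-hand loop, 12 codons in each gene, from GENCODE release 29 transcripts; capitals mark the codons for aspartate, asparagine or glutamate at codons 1, 3, 5 and 12 of the loop, whose side chains hold the calcium ion.
S100A2: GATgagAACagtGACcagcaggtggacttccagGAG
S100A4: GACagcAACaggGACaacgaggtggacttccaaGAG
S100A6: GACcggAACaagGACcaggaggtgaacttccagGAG
S100A11: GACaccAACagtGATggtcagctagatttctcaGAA
S100A10: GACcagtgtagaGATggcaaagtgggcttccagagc
All 4 marked codons were present in S100A2, S100A4, S100A6 and S100A11, and 2 of the 4 in S100A10, a protein known to hold its active shape without calcium. On GRCh38, minus strand, the loops lie at chr1:153561511-153561546 for S100A2, chr1:153543843-153543878 for S100A4, chr1:153534753-153534788 for S100A6, chr1:152032743-152032778 for S100A11 and chr1:151983244-151983279 for S100A10, each within 1 coding exon.

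The partner end of ANXA2 is encoded by its first codons, whose product forms the helix that S100A10 holds. The first 14 codons, with the start codon in capitals, lie at chr15:60386034-60386075 on the minus strand of GRCh38.
ANXA2: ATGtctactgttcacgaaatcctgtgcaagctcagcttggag

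In both libraries ANXA2 and S100A11 were the most abundant members and S100A2 the least. In the control, ANXA2 stood at 681 FPKM, S100A11 at 661, S100A10 at 329, S100A6 at 313, ANXA1 at 265, ANXA3 at 161, ANXA5 at 88.9, ANXA6 at 81.5, S100A4 at 19.1 and S100A2 at 1.70. FPKM is per transcript length, so these levels can be set side by side, with a limit for ANXA2. Its first place rests on 19 incomplete transcript models, which held 147 FPKM in the control. The coding sequence of its main transcript stood at 531, below S100A11. ANXA2 was above 99.8% of the genes tested and S100A2 above 9.71%, and the top member was 401 times the bottom one. S100A2 was also last in the si-v library, where S100A11, at 633, stood above ANXA2, at 619. S100A10 went from the third place to the fifth, behind S100A6 and ANXA1, and ANXA6 passed ANXA5. Without replicates it cannot be said which neighbours in either order differ beyond the spread between cultures. Together the 10 genes held 0.862% of all summed FPKM with si-NC and 0.835% with si-v.

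**Figure D1:**
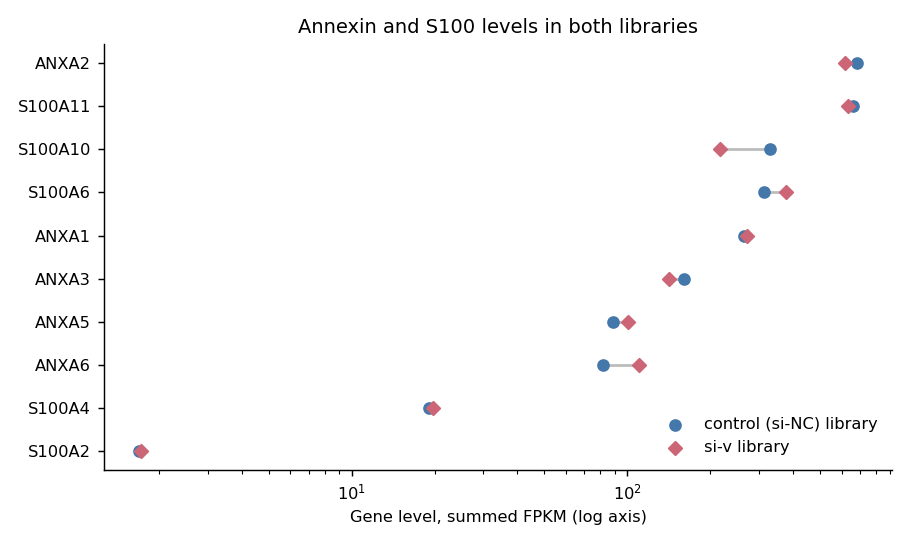
Summed FPKM of each member (log axis) in the control library (circles) and the si-v library (diamonds), 1 library each, joined by a line. The points nearly coincide for S100A2, S100A4, ANXA1 and S100A11, and lie farthest apart for S100A10 (329 and 218) and ANXA6 (81.5 and 111).

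Between the libraries the members were close. On the scale log2((si-v + 1)/(control + 1)), 0 of 10 members were 2-fold or more higher in the si-v library, against 2.37% of the 11046 genes tested, and 0 of 10 were that much lower, against 2.49%. At 1.5-fold, 0 members were higher, where the background was 9.82%, and 1 was lower, where it was 8.91%; these counts are near what the background gives for 10 genes. The median log2 ratio was 0.03 over the members and 0.0037 over all genes tested. Of the 10, 7 lay within 1.2-fold, as did 46.7% of the genes tested; 6 members were higher and 4 lower, 3 and 2 in each family, though ANXA1, S100A2 and S100A4, all near 0, changed sign under some of the alternatives tried.

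The member past 1.5-fold was S100A10 (chr1:151982915-151994390, minus strand, GRCh38), the calcium-independent partner of ANXA2. It stood at 329 and 218 FPKM, a level 1.51-fold lower (log2 -0.59), just past the 1.5-fold line at 0.58. The values rest on about 4320 and 3110 fragments. The 95% counting interval of the log2 ratio, taken from these fragments without the pseudocount, ran from -0.66 to -0.52. This interval is an exact Clopper-Pearson interval on approximate fragment numbers, and it spans both sides of the line. It covers counting error only, so it says nothing of the variation between cultures. Of the 11046 genes tested, 8.64% had a lower ratio, and of the 1188 genes with a mean of at least 50 FPKM, 58 did (4.88%). For comparison the housekeeping gene GAPDH stood at 313 and 219 FPKM (-0.51) and ACTB at 96.1 and 93.9 (-0.03).

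ANXA2 (chr15:60347134-60402883, minus strand), the membrane-binding partner in that complex, stood at 681 and 619 FPKM, a log2 ratio of -0.14 (counting interval -0.20 to -0.12). The ratio of ANXA2 to S100A10 was therefore 2.07 with si-NC and 2.84 with si-v. Reads of ANXA2 are hard to place: 41.2% of the 50-base stretches of its main transcript ANXA2-203 also occur in the pseudogene ANXA2P2. The level of ANXA2 is therefore uncertain, by an amount that was not measured. For the other members this share was 2.20% in S100A11 and 0 in the rest, and no annotated exon on the opposite strand overlapped any of the 10.

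The annexin with the largest difference was ANXA6 (chr5:151100712-151157882, minus strand), which carries a doubled annexin core and acts in endocytosis and cholesterol transport. It stood at 81.5 and 111 FPKM, 1.35-fold higher (log2 0.44, counting interval 0.34 to 0.50). ANXA5 (chr4:121667955-121697113, minus strand), the phosphatidylserine binder used to stain dying cells, was at 88.9 and 101 (0.18). ANXA3 (chr4:78551519-78610451, plus strand) lay the other way, at 161 and 142 (-0.19). ANXA1 (chr9:73151757-73170393, plus strand), which mediates part of the anti-inflammatory action of glucocorticoids, was nearly level at 265 and 273 (0.04, counting interval -0.0083 to 0.11). None of these annexins reached 1.5-fold, and 16.3% of the genes tested had a higher ratio than ANXA6.

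Among the S100 genes, S100A6 (chr1:153534599-153536244, minus strand), also called calcyclin, stood at 313 and 378 FPKM (log2 0.27, counting interval 0.18 to 0.34). S100A11 (chr1:152032506-152047907, minus strand), a partner of ANXA1 in membrane binding, was at 661 and 633 (-0.06). S100A4 (chr1:153543613-153550136, minus strand), which binds non-muscle myosin, was at 19.1 and 19.7 (0.04), on about 124 and 136 fragments, and its counting interval of -0.34 to 0.38 holds differences of either sign. S100A2 (chr1:153561108-153567890, minus strand), a gene of basal epithelial cells, was close to the filter at 1.70 and 1.71. Its 17.1 and 16.9 approximate fragments leave an interval of -1.18 to 0.94, so a 1.5-fold difference in either direction was not detectable at this depth. Over the members, the counting interval left out no difference for 7 and held it for 3. The interval narrows as fragments rise: S100A11 was among the 7 at -0.06, on about 4310 and 4470 fragments. The same count over all genes was not made, so the 7 are not a result about the members.

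**Figure D2:**
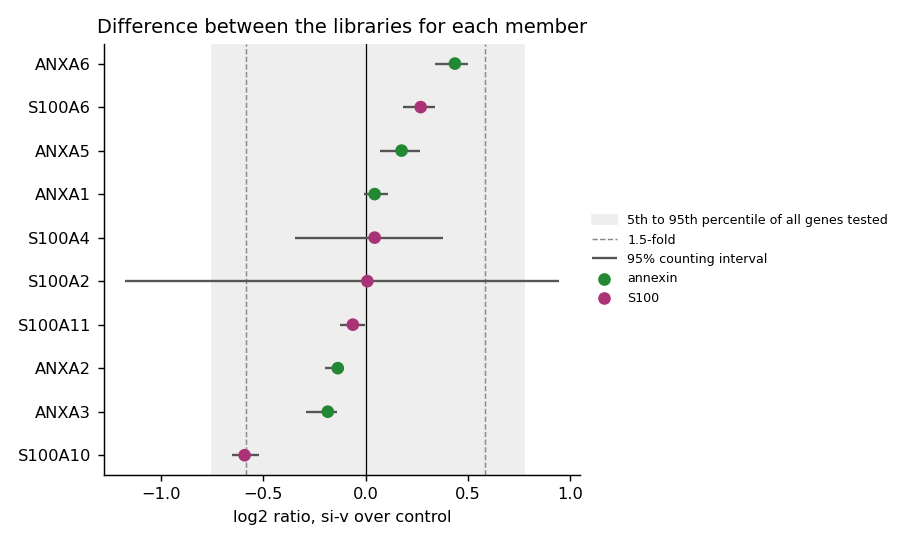
Log2 ratio of the si-v to the control library for each member (green, annexin; purple, S100), with its 95% counting interval (bars), the 5th to 95th percentile of all genes tested (grey band) and the 1.5-fold lines (dashed). S100A10 at -0.59 lies on the lower dashed line, all 10 points lie inside the grey band, and the bars of S100A2 and S100A4 are the widest.

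Single transcripts differed more than gene totals did. The table listed 55 transcripts of the 10 genes, and 44 passed the filter of 1 FPKM; 3 of these were 2-fold or more higher in the si-v library and 3 lower (6.82% each). Over all 24899 transcripts tested the shares were 11.7% and 10.4%, so the members' transcripts were not above the background. At 1.5-fold, 10 were higher and 7 lower (22.7% and 15.9%), against 21.2% and 18.7%. Of the 6 at 2-fold, 3 had annotated models that stop before the true end of the RNA, as did 19 of all 44 tested. How reads were divided among overlapping transcripts was not tested.

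ANXA2 held both of the abundant transcripts past 2-fold, out of 16 member transcripts of 20 FPKM or more. It also held 17 of the 44 member transcripts tested, and the share past 2-fold over all transcripts of that level was not computed. ANXA2-230 stood at 46.2 and 0.0234 FPKM (log2 -5.53, a size set by the pseudocount), and ANXA2-226 at 21.6 and 63.1 (1.51, counting interval 1.32 to 1.78). Both are incomplete models, with 9 exons and 682 coding bases for ANXA2-230 and 10 exons and 769 coding bases for ANXA2-226, against 14 exons and 1017 coding bases for the main transcript ANXA2-203. Their starts differ as well: the annotated RNA starts at position 60397338 of chromosome 15 for ANXA2-230, 60398742 for ANXA2-226 and 60397986 for ANXA2-203 (GRCh38). Only 6.73% of the 50-base stretches of ANXA2-230 and 11.6% of those of ANXA2-226 occur in no other listed ANXA2 transcript, and for ANXA2-203 the share is 0.

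Full ANXA2 messages differed less than these fragments. ANXA2-203 stood at 437 and 404 FPKM (log2 -0.11) and ANXA2-204 at 92.7 and 59.3 (-0.64). These 2 and ANXA2-202 share 1 coding sequence of 1017 bases, and summed they stood at 531 and 466 (-0.19). The 19 incomplete models together were at 147 and 152 (0.05). Among the low ANXA2 transcripts, ANXA2-217 was at 2.52 and 5.65 (0.92) and ANXA2-201, with 1071 coding bases, at 2.41 and 1.04 (-0.74). The coding sequence that begins with the codons printed above thus differed by less than 1.5-fold between the libraries.

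S100A4 showed equal totals over unequal transcripts. All 4 of its listed transcripts encode the same 303 coding bases. S100A4-204 stood at 16.4 and 9.34 FPKM (log2 -0.75, counting interval -1.27 to -0.35), or 85.9% and 47.5% of the gene. S100A4-203, whose annotated start differs (position 153545063 of chromosome 1, against 153545885 for S100A4-204), stood at 0.625 and 6.59 (2.22), on about 3.93 and 44.9 fragments, or 3.28% and 33.5%. S100A4-201 was at 1.24 and 2.95 (0.82, counting interval -0.04 to 2.60), and S100A4-202 at 0.811 and 0.795. S100A4-204 was thus lower and S100A4-203 higher in the si-v library, while the level summed over the shared coding sequence was 19.1 and 19.7.

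In S100A6 the main transcripts were both higher in the si-v library: S100A6-201 at 160 and 176 FPKM (log2 0.13) and S100A6-205 at 138 and 179 (0.37), which encode the same 270 bases. The incomplete model S100A6-203 was at 12.3 and 22.5 (0.82), and S100A6-202 at 2.92 and 0.943 (-1.01). S100A10 was carried by S100A10-202, at 326 and 218 (-0.58), and S100A10-201 was at 2.69 with si-NC and listed at 0 with si-v. The lower level of S100A10 was therefore that of its main transcript.

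**Figure D3:**
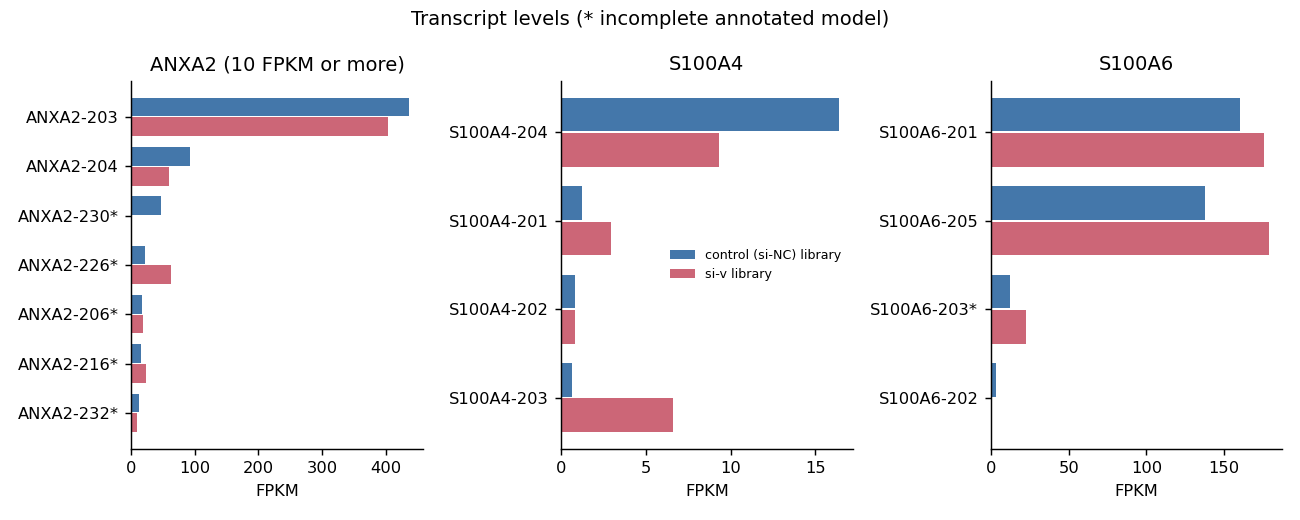
FPKM of single transcripts of ANXA2 (those of 10 FPKM or more), S100A4 and S100A6 in the control (blue) and si-v (red) libraries, 1 library each; an asterisk marks an annotated model that is incomplete. The bar of ANXA2-230 is present in the control alone (46.2 and 0.0234), and S100A4-204 and S100A4-203 differ in opposite directions.

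In ANXA6 the transcripts encode proteins of different length. ANXA6-215, with 1923 coding bases, stood at 63.7 and 85.1 FPKM (log2 0.41), and ANXA6-211, with 1380, at 12.99 and 20.9 (0.65). ANXA6-201, the longest with 2019, was at 3.76 and 2.24 (-0.56), and ANXA6-202 at 0.509 and 1.60 (0.78). The higher level of the gene was thus shared by its 2 most abundant forms. ANXA5-201 stood at 65.0 and 72.1 and ANXA5-210 at 20.5 and 25.03, each close to the same share of the gene in both libraries. In ANXA1 the main form ANXA1-201 was at 254 and 257 and ANXA1-202, which encodes the same protein, at 5.66 and 9.88 (0.71). ANXA3-201 was at 150 and 128, ANXA3-209 at 7.84 and 5.99 (-0.34), ANXA3-210 at 1.86 and 3.80 (0.74), and the incomplete ANXA3-208 was listed at 0 with si-NC and at 2.03 with si-v. S100A2-202 was at 1.38 and 0.940, and S100A11 has the single listed transcript S100A11-201.

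Other genes of both families were measured too. Of 8 other annexin genes 4 were tested, and their median log2 ratio was 0.06. Of these, 0 reached 1.5-fold, against 9.82% higher and 8.91% lower over all genes tested. ANXA11, an RNA granule and membrane tether, stood at 34.2 and 37.9 FPKM (0.14) and ANXA7 at 45.2 and 48.2 (0.09), while ANXA8 was at 6.01 and 6.14 (0.03) and ANXA4 at 4.69 and 4.35 (-0.09). Of 15 other S100 genes 6 were tested, with a median of -0.06, and 1 reached 1.5-fold: S100A7, psoriasin, at 6.26 and 10.4 (0.65). S100A13, which takes part in the release of growth factors without a signal peptide, was at 51.3 and 73.9 (0.52), S100A16 at 58.0 and 50.5 (-0.20) and S100A3 at 3.67 and 2.80 (-0.30). S100A4, S100A6 and S100A2 lie close to S100A3, S100A5, S100A13 and S100A16 on chromosome 1, and these neighbours did not share a direction.

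Among 13 genes for binding partners and receptors of the members, 8 were tested, 6 were lower in the si-v library, and the median was -0.16. PLAT, the plasminogen activator that the ANXA2 and S100A10 complex binds, stood at 32.2 and 16.6 FPKM (log2 -0.92). It was the 1 gene of the list past 1.5-fold, where 8.91% of all genes tested were that much lower. HLTF, a chromatin remodeler bound by that complex, was at 30.1 and 21.5 (-0.46). MYH9, the non-muscle myosin heavy chain that S100A4 binds, lay the other way at 455 and 624 (0.45), and the kinase gene SRC, whose product phosphorylates ANXA2, was level at 4.95 and 4.98 (0.0095). AHNAK, a large scaffold of the ANXA2 and S100A10 complex, was at 174 and 141 (-0.30), a gene chosen after its values were seen. Genes for the formyl peptide receptors of ANXA1 were not analysed here.

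Lists of related calcium genes were centred near 0. Of 11 membrane repair genes tested, 5 were higher and 6 lower, with a median of -0.01. Of these, 0 passed 1.5-fold, against 9.82% higher and 8.91% lower over all genes tested, though VPS4B lay just short of the line. CHMP4B, an ESCRT subunit that buds damaged membrane, stood at 133 and 184 FPKM (log2 0.47) and VPS4A at 19.2 and 24.7 (0.34), while VPS4B was at 20.2 and 13.2 (-0.58) and PDCD6IP at 39.98 and 31.1 (-0.35). In the 14 EF-hand genes outside the S100 family, 7 were higher and 7 lower, with a median of -0.0021, from EFHD2 at 51.3 and 71.9 (0.48) and CIB1 at 15.2 and 19.02 (0.31) to NUCB2 at 103 and 82.0 (-0.33) and the calmodulin gene CALM2 at 346 and 289 (-0.26). In the 12 genes of calcium stores and entry that were tested, 6 were higher and 6 lower, with a median of 0.0023. The store sensor gene STIM1 was at 10.5 and 13.2 (0.31) and the channel gene ORAI1 at 6.19 and 7.65 (0.27). The pump gene ATP2C1 was at 18.5 and 16.1 (-0.19), and ITPR2, a calcium release channel, at 3.31 and 2.96 (-0.12).

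**Figure D4:**
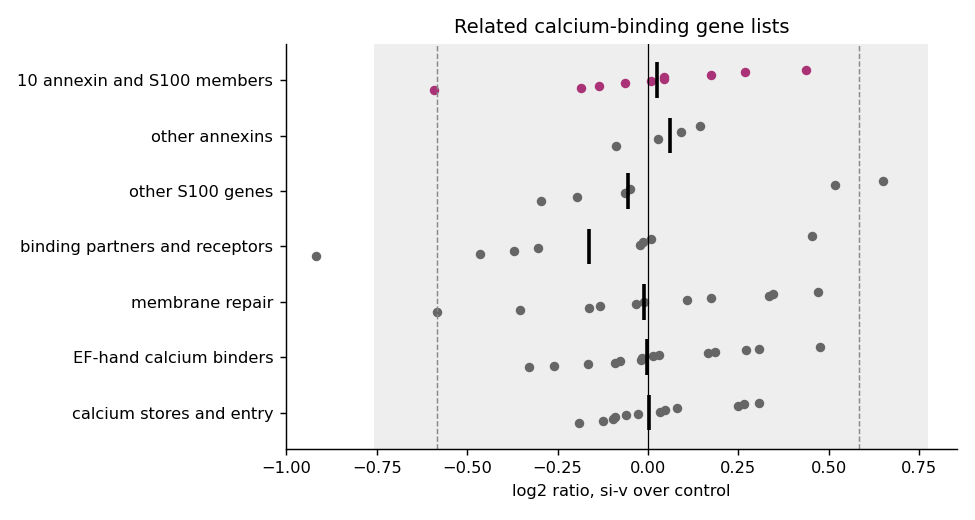
Log2 ratio of the si-v to the control library for each tested gene (points) of the members and of the 6 related lists; thick ticks are medians, dashed lines 1.5-fold and the grey band the 5th to 95th percentile of all genes tested. Medians lie between -0.16 and 0.06, and PLAT at -0.92 is the 1 point outside the band.

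How far each member's ratio depended on the way it was computed is shown in the plot of ratios under other processing. S100A10 was lower in the si-v library under all 10 alternatives, with log2 ratios from -0.74 to -0.56, and 7 of them passed 1.5-fold. Among the 7 were the filter settings and complete transcript models only. These could not change its ratio of -0.59, so their passing was fixed in advance. The pass with a pseudocount of 0.1 was fixed as well, since a smaller pseudocount can only raise the size of a ratio. Neither a filter nor a pseudocount could change the sign of a member's ratio. ANXA6 was higher under all 10, from 0.33 to 0.45. S100A4 ranged from -0.75, its most abundant transcript alone, to 0.05.

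**Figure D5:**
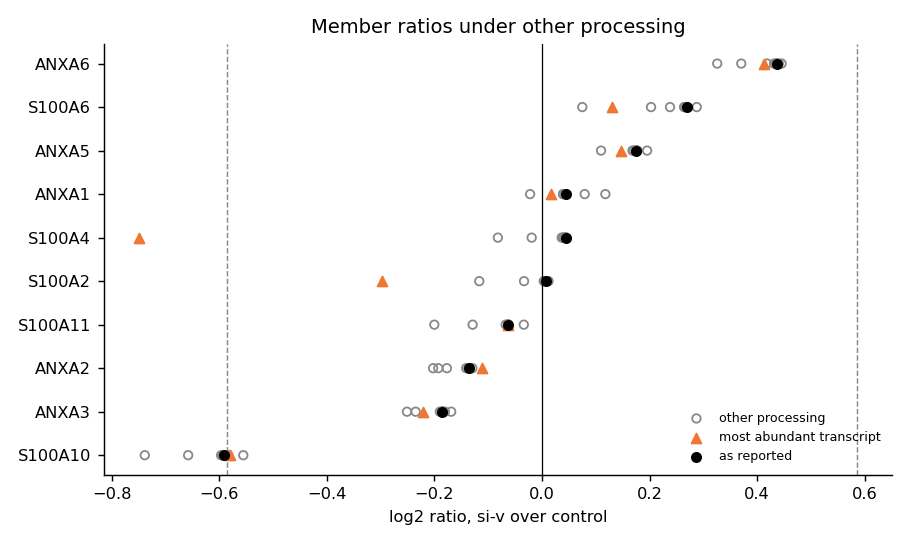
Log2 ratio of the si-v to the control library of each member as reported (black), from its most abundant transcript (orange triangle) and under the other alternatives (open circles), with the 1.5-fold lines dashed. S100A10 stays between -0.74 and -0.56, and the triangle of S100A4 at -0.75 lies far from its gene value of 0.04.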

How the data were processed

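The authors' deposited table gives 1 value per transcript and library, read here as FPKM from the values, since its header names no unit. The submitters' processing notes name HISAT2 2.0.5, StringTie and cutadapt, with the build hg19; annotation release, strand setting and filters: not given in the sources used here. Of 39605 transcripts 99.5% matched GENCODE release 29 by ID without version; that release is on GRCh38 and gave symbols, lengths, models, sequences and every coordinate printed. FPKM was summed per gene, genes under 1 FPKM in both libraries were left out, and the log2 ratio used a pseudocount of 1, which understates differences of low genes. A fold stood in for a test. The mode of low values times length (91.2 control, 84.1 si-v) was taken as 1 fragment; 43.4% and 38.9% of the 106 and 95 values near it lay within 5%, so fragment numbers are approximate. Intervals were taken from fragments summed over transcripts, without the pseudocount, so a printed log2 ratio need not lie at the centre of its interval. Intervals do not cover how overlapping transcripts shared reads. An EF-hand loop was located by translating coding sequences and aligning them to S100A6.

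The members and lists were chosen with earlier results of these data known, and summing transcripts followed that earlier work. Named were all members, the 2 highest and 2 lowest genes of each related list, list genes at 2-fold or more, ACTB and GAPDH; ESR1, CD14 and AHNAK were added after their values were seen. The rule also took in every listed transcript of the members; those not described singly enter the counts of transcripts. No gene was named for a similar pattern, since 2 libraries give no pattern. Alternatives were other pseudocounts, filters, scalings, gene values and removal of a trend over length and GC content. Python 3.11.15 and scipy 1.17.1 were used.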

Additional observations from a re-analysis of the deposited data

How the results depend on the processing

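Counts of members past 2-fold (0 higher, 0 lower) and past 1.5-fold higher (0) were the same under all 10 alternatives, of which 1, complete transcript models only, was added after the data were seen. The count past 1.5-fold lower was 1 as reported and 0 with a pseudocount of 5 and on fragments per gene, where S100A10 stood at -0.58 and -0.56; the line is at 0.58 in size, so its call rests on small margins. With the most abundant transcript only the count was again 1, but the gene was S100A4 (-0.75), with S100A10 at -0.58. The share of all genes tested that were 1.5-fold or more lower was 8.91% as reported. It was 3.54% with a pseudocount of 5, 8.58% on fragments per gene and 14.4% with the most abundant transcript. The share that much higher ran from 4.10% to 14.2% over the alternatives, and shares at 2-fold were not computed for them. The median of the members ran from -0.10 to 0.04 and was below 0 after removal of a trend over length and GC content (-0.10), the most abundant transcript (-0.09) and equal sums without mitochondrial genes (-0.03). Over all genes tested, the medians under these settings were 0.0037, -0.013 and -0.055 in the same order. ANXA2, ANXA3, ANXA5, ANXA6, S100A6, S100A10 and S100A11 kept their sign under all 10; ANXA1 did under 9, S100A4 under 7, and S100A2 under 5 of the 8 that gave it a value. The filter settings could not change the ratio of a gene that they kept. Complete models only could not change that of a gene with no incomplete model. Other pseudocounts could change the size of a ratio but not its sign. Agreement in sign under all of these settings was fixed in advance. No paired analysis was possible because each group has 1 library. Depth limits S100A2 most.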
